A study of Mus musculus with 17 samples.

Results

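Acute phase genes were followed in mouse lung by their listed symbols: the serum amyloid A genes Saa1, Saa2 and Saa3, Hp, Orm1, Lcn2, Lrg1, Lbp, Steap4 and Ptx3. Of these 10 genes, 9 were in the table of 18262 genes, and Saa2 was not analysed here. In the 16 lung libraries 8 of the 9 had enough reads to be tested, among 15422 tested genes, and Saa1 did not. Bulk RNA sequencing had been done on 4 lung groups of 4 libraries each and on 1 library of the injected cells. All mice were C57BL/6. The tumor_GEMy mice carried M3-9-M rhabdomyosarcoma cells with a luciferase and mCherry reporter (ffluc-mCherry), 500000 cells placed in the gastrocnemius muscle, and received 8000000 IL12-GEMy cells intravenously on day 12. The tumor_untreated mice carried the same tumor and no IL12-GEMy cells. Lungs of both tumor groups were taken on day 15. The naive_GEMy mice had no tumor, received the same number of IL12-GEMy cells and gave lungs 3 days later. The naive_untreated mice had neither. The ages of the mice were not stated. The IL12-GEMy product was 1 library of bone marrow cells transduced with a lentivirus to produce interleukin-12 and grown with SCF, FLT3L and IL-6. The labels do not say that each library is from its own mouse, so a p-value covers only the spread between libraries, which may be technical.

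The acute phase response is the change in plasma proteins that follows infection, injury or a growing tumor. Interleukin-6, interleukin-1 and tumor necrosis factor drive it, acting on hepatocytes and also on epithelial, endothelial and myeloid cells through the transcription factors STAT3, C/EBP and NF-kappaB. In lung, SAA3, haptoglobin, lipocalin-2 and pentraxin-3 can be made locally, and neutrophils store several of these proteins in their granules. In bulk tissue, a change in the number of cells of a type and a change in RNA per cell cannot be told apart.

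Levels below are FPKM, fragments per kilobase and 1000000 assigned fragments, where the length is the genomic span of the gene with introns included. Tests used limma on log2(RPM + 0.5), RPM being reads per 1000000 assigned reads, over all 16 lungs. P-values were 2-sided and adjusted by Benjamini-Hochberg over all genes tested, and a gene was called at an adjusted p under 0.05. Fold changes are on the log2(RPM + 0.5) scale, which understates the change of low genes. Lung libraries held 27566860 to 36815032 assigned reads and the product 31111296. Hemoglobin transcripts took 0.306 to 2.41% of reads in tumor_GEMy, 0.553 to 5.41% in tumor_untreated, 0.10 to 0.335% in naive_GEMy and 0.19 to 1.51% in naive_untreated libraries. In the labels the tumor-bearing samples carry a number, 2 in every treated and 1 in every untreated sample, and what it stands for cannot be told apart from treatment. After the number comes a letter code that differs between the libraries of each tumor group. It is BL, NC, TL or BR in tumor_untreated and NC, BL, TR or TL in tumor_GEMy samples, and its meaning is not stated. The label of lung was checked with 13 epithelial markers, which summed to at least 39080 RPM in every lung library and to 1.80 RPM in the product. Of 8 hepatocyte markers in the table, Apoa1, Apoa2 and Ttr averaged at most 0.241 RPM in each lung group, and the albumin gene Alb 0.968 to 1.38 RPM. All 8 summed to 21.7 to 52.3 RPM in tumor_GEMy, 16.7 to 27.9 RPM in tumor_untreated, 15.1 to 19.8 RPM in naive_GEMy and 16.9 to 22.8 RPM in naive_untreated libraries, sums above the RPM of Saa3, Orm1 and Ptx3. Most of the sum was Cyp2e1, a cytochrome P450 gene, with 26.3 ± 14.9 RPM in tumor_GEMy, 15.0 ± 3.69 RPM in tumor_untreated, 12.3 ± 2.24 RPM in naive_GEMy and 14.5 ± 2.71 RPM in naive_untreated libraries (SD, n = 4 each). Cyp2e1 was called higher in tumor_GEMy against naive_GEMy (adjusted p = 0.0377) and against naive_untreated lungs (adjusted p = 0.0494), calls that were not recomputed under other settings.

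The promoters of the genes that moved most are given first, those of Saa3, Lcn2, Lrg1 and Steap4, because the tests below separate these 4 genes by condition. Each is the 250 bases before the transcript start in RefSeq on GRCm38.p6, read 5′ to 3′ on the strand of the gene. Capitals mark matches to 3 motifs searched on both strands: kappaB, STAT (TTC and GAA with any 3 bases between) and C/EBP (TTGC and AA with any 2 bases between).
Saa3, chr7:46715677-46715926, minus strand: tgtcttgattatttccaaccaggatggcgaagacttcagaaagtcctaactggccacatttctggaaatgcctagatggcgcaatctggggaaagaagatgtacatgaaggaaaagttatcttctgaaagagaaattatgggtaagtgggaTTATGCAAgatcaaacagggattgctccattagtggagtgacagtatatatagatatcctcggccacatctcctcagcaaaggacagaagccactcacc
Lcn2, chr2:32387740-32387989, minus strand: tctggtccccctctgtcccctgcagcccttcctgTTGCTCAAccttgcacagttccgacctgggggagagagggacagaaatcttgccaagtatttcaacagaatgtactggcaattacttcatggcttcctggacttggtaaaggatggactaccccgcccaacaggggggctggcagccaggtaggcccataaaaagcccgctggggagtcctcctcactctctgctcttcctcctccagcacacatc
Lrg1, chr17:56121947-56122196, minus strand: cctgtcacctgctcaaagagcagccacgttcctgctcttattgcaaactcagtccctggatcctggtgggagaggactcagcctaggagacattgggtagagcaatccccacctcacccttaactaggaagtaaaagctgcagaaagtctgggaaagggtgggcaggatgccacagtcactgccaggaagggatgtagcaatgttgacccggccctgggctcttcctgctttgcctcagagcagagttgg
Steap4, chr5:7960222-7960471, plus strand: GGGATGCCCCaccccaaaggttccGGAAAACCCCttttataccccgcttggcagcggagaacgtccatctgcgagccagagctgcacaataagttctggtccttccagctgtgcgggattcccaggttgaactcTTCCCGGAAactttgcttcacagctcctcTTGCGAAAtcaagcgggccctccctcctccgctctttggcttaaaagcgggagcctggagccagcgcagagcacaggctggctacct

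The Steap4 window held 2 kappaB matches, 1 STAT match and 1 C/EBP match, at 250 to 241 and 226 to 217, at 116 to 108, and at 87 to 80 bases before the start. No matches overlapped. The Saa3 and Lcn2 windows each held 1 C/EBP match, at 99 to 92 and at 216 to 209 bases before the start. The Lrg1 window held no match to the letters of the 3 motifs. Of 32851 mouse promoters of the same length in RefSeq, 7.25% held a kappaB match, 7.02% a STAT match and 9.56% a C/EBP match. All 3 motifs occurred together in 20 of them, 0.0609%. A match is a match of letters and no measure of binding. Of the 10 genes, 7 had a promoter entry, and Hp, Orm1 and Lbp did not.

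Saa1 and Saa2 are printed as a pair because their copies are nearly identical.
Saa1, chr7:46742981-46743230, minus strand: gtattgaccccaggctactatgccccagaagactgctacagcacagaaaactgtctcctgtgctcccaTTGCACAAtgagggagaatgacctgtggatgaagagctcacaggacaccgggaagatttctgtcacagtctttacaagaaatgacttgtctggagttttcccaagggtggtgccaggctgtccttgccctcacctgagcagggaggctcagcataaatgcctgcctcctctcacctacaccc
Saa2, chr7:46751583-46751832, plus strand: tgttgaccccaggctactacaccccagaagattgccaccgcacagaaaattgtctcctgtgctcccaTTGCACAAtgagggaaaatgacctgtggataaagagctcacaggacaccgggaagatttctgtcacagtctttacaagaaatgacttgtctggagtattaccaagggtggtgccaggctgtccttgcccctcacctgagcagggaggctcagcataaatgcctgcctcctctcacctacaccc
The aligned promoters were identical at 238 of 251 columns (94.8%), whereas those of Saa1 and Saa3 were identical at 48.2%. Both windows hold 1 C/EBP match, and the Ptx3 window also holds 1. The longest protein-coding transcripts of Saa1 and Saa2 in the GENCODE annotation were identical at 87.3% of aligned columns, so reads of the pair could have been split or lost in the authors' counting.

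The levels of the 9 genes spanned a wide range. Hp, the gene of the hemoglobin scavenger haptoglobin, was the highest in lung, at 302 ± 34.9 FPKM in tumor_GEMy, 297 ± 28.4 in tumor_untreated, 305 ± 39.2 in naive_GEMy and 329 ± 46.6 FPKM in naive_untreated lungs (SD, n = 4 each). Over the 16 lungs, Lcn2 averaged 52.9 FPKM and Lrg1 49.1 FPKM, a difference smaller than the spread between libraries of either gene. Lbp averaged 2.43 FPKM and Steap4 2.36 FPKM, and their order changed between groups. Saa3 averaged 0.87 FPKM, Orm1 0.287, Ptx3 0.14 and Saa1 0.0263 FPKM. The genomic span lowers the FPKM of Lbp (26.36 kb) and Steap4 (21.74 kb) against the other genes, with 2.27 to 5.92 kb. In RPM the group means were 58.2 to 71.1 for Lbp and 18.1 to 109.6 for Steap4, against 1.36 to 4.43 for Saa3. Hp alone made up 64.2 to 75.8% of the summed RPM of these genes in tumor_GEMy, 67.7 to 69.3% in tumor_untreated, 79.3 to 83.8% in naive_GEMy and 83.0 to 84.1% in naive_untreated libraries.

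**Figure D1:**
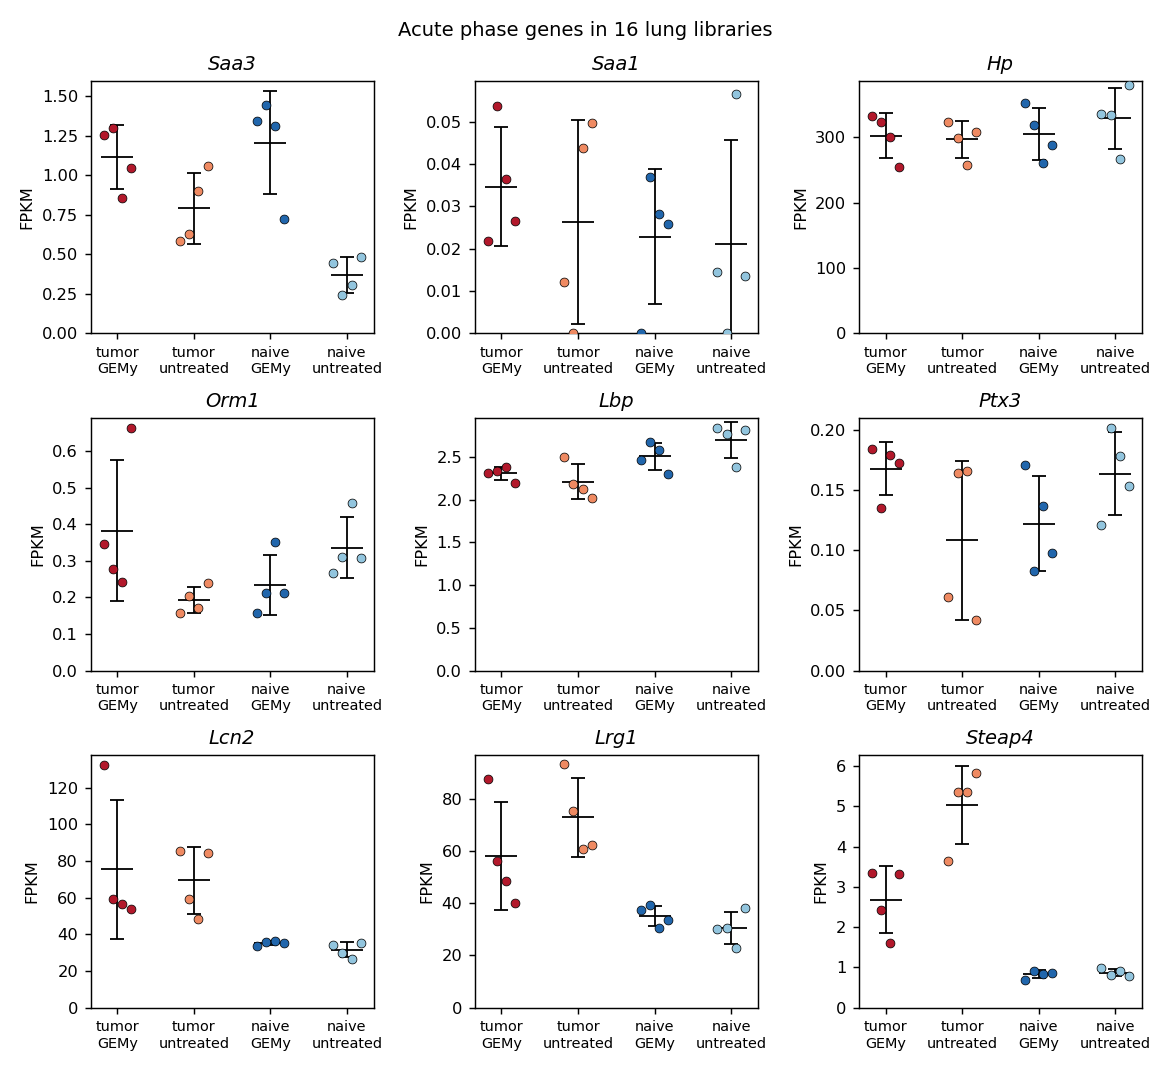
FPKM of 9 acute phase genes in each lung library, with the group mean and SD (n = 4), on a linear axis from 0. Saa3 was lowest in naive_untreated lungs, Lcn2, Lrg1 and Steap4 were higher in both tumor groups, and Hp lay between 254 and 380 FPKM in all 16 libraries.

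Comparing tumor_untreated with naive_untreated lungs asked what a distant tumor changed. Saa3, Lcn2, Lrg1 and Steap4 rose and Lbp fell, while Hp, Orm1 and Ptx3 did not pass. The 4 rises stand beside 14.7% of all tested genes called higher, the 1 fall beside 26.0% called lower, and the 5 calls in either direction beside 40.7%. The median log2 fold change of the 8 genes was 0.36, against −0.09 for all genes tested. With this many genes changed in the lung, the share of calls alone says little about these genes, and their sizes are given below.

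Steap4, a metalloreductase of the plasma membrane that is induced by inflammatory cytokines (chromosome 5, 7960472 to 7982213, mm10, plus strand), moved most. It had 3.63, 5.35, 5.37 and 5.82 FPKM in tumor_untreated lungs, against 0.984, 0.807, 0.906 and 0.783 FPKM in naive_untreated lungs. Every tumor_untreated library was above every naive_untreated library, a separation in either direction that 35.5% of all tested genes had. The log2 fold change was 2.49 (SE 0.20, adjusted p = 1.07e-07), a 5.61-fold difference with a 95% confidence interval of 4.21 to 7.47. Its family members did not move with it: of Steap1, Steap2 and Steap3, none rose and Steap3, the ferrireductase of erythroid cells, was lower by a log2 of −0.48 (adjusted p = 0.00128).

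Lrg1, which encodes a leucine-rich glycoprotein that modulates TGF-beta signalling in endothelium and is also stored in neutrophils (chromosome 17, 56119678 to 56121946, minus strand), had 93.1, 75.4, 60.6 and 62.2 FPKM in tumor_untreated lungs, against 29.99, 30.7, 23.0 and 38.0 FPKM in naive_untreated lungs. The groups did not overlap, and the log2 difference was 1.25 (SE 0.20, adjusted p = 0.000224).

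Lcn2, the gene of lipocalin-2, which binds bacterial siderophores and withholds iron (chromosome 2, 32384637 to 32387739, minus strand), had 85.4, 59.5, 48.6 and 84.5 FPKM in tumor_untreated lungs, against 34.4, 30.1, 26.4 and 35.2 FPKM in naive_untreated lungs. The lowest tumor_untreated library was above the highest naive_untreated one. On the log2 scale it was higher by 1.11 (SE 0.24, adjusted p = 0.00219).

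Saa3, the serum amyloid A gene expressed mainly outside the liver (chromosome 7, 46711998 to 46715676, minus strand), had 0.582, 0.626, 0.897 and 1.06 FPKM in tumor_untreated lungs, against 0.448, 0.241, 0.306 and 0.485 FPKM in naive_untreated lungs. These values rest on 71 to 126 reads per tumor_untreated library and 26 to 53 per naive_untreated library, and the groups did not overlap. Saa3 was higher by a log2 of 0.87 (SE 0.22, adjusted p = 0.00435).

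Lbp, whose product carries lipopolysaccharide to CD14 and TLR4 (chromosome 2, 158306493 to 158332852, plus strand), was slightly lower. It had 2.50, 2.18, 2.13 and 2.02 FPKM in tumor_untreated lungs, against 2.83, 2.76, 2.39 and 2.81 FPKM in naive_untreated lungs. The groups overlapped, since tumor_untreated replicate 1 was above naive_untreated replicate 3. Its log2 fold change was −0.29 (SE 0.08, adjusted p = 0.00672), and the call was lost with median-of-ratios scaling (−0.20, adjusted p = 0.0566). Epithelial markers moved beside it, as all 13 fell in this comparison, with summed levels of 39080 to 50740 RPM in tumor_untreated, against 57500 to 62180 RPM in naive_untreated libraries. Some of these calls were near the threshold, as for Ager (adjusted p = 0.0478) and Bpifa1 (0.0435), and they were not recomputed under other settings. Other cell markers fell as well, 6 of 8 fibroblast and mesothelial and 3 of 9 endothelial markers, while 2 endothelial markers rose. The part of any of these cells in the Lbp result was not tested.

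Hp (chromosome 8, 109575128 to 109579172, minus strand) had 324, 298, 257 and 308 FPKM in tumor_untreated lungs, against 336, 334, 267 and 380 FPKM in naive_untreated lungs. The groups overlapped over most of their range, and the log2 fold change of −0.14 had a 95% confidence interval of −0.39 to 0.11 (adjusted p = 0.348). A rise as large as that of Saa3, Lcn2, Lrg1 or Steap4 lies outside this interval.

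Orm1, the gene of the plasma carrier orosomucoid (chromosome 4, 63344556 to 63348163, plus strand), had 0.158, 0.204, 0.171 and 0.239 FPKM in tumor_untreated lungs, against 0.268, 0.312, 0.458 and 0.308 FPKM in naive_untreated lungs. Every tumor_untreated library was lower, at 17 to 28 reads, against 27 to 47 reads in naive_untreated libraries. The log2 fold change of −0.51 did not pass (SE 0.21, adjusted p = 0.0588). It passed with a pseudocount of 0.1 (adjusted p = 0.0495), in a fit of the compared groups alone (0.0267), with a replicate block (0.0495), with array weights (0.0197), and without tumor_GEMy replicate 4 (0.0199) or naive_GEMy replicate 3 (0.049). The transcripts of Orm1 are 91.0% identical to those of Orm2 and 86.1% to those of Orm3, so the division of reads among the 3 genes is uncertain. Orm2 and Orm3 held 8.42 and 17 reads over the 4 tumor_untreated libraries, against 5 and 16 over the 4 naive_untreated libraries.

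Ptx3, the gene of the long pentraxin that binds microbes and complement (chromosome 3, 66219887 to 66225806, plus strand), had 0.0612, 0.164, 0.165 and 0.0416 FPKM in tumor_untreated lungs, against 0.121, 0.202, 0.178 and 0.153 FPKM in naive_untreated lungs. The tumor_untreated libraries fell into a low pair, with 12 and 8 reads, and a pair inside the naive_untreated range. The log2 fold change was −0.42 (SE 0.21, adjusted p = 0.113), and it passed without tumor_untreated replicate 2 (−0.57, adjusted p = 0.0444) or replicate 3 (−0.57, adjusted p = 0.0459).

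Saa1, one of the main liver serum amyloid A genes (chromosome 7, 46740497 to 46742980, minus strand), had 0 to 4 reads in every lung library. Its summed reads were 11 in tumor_GEMy, 8 in tumor_untreated, 7 in naive_GEMy and 6 in naive_untreated lungs, too few for a test.

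**Figure D2:**
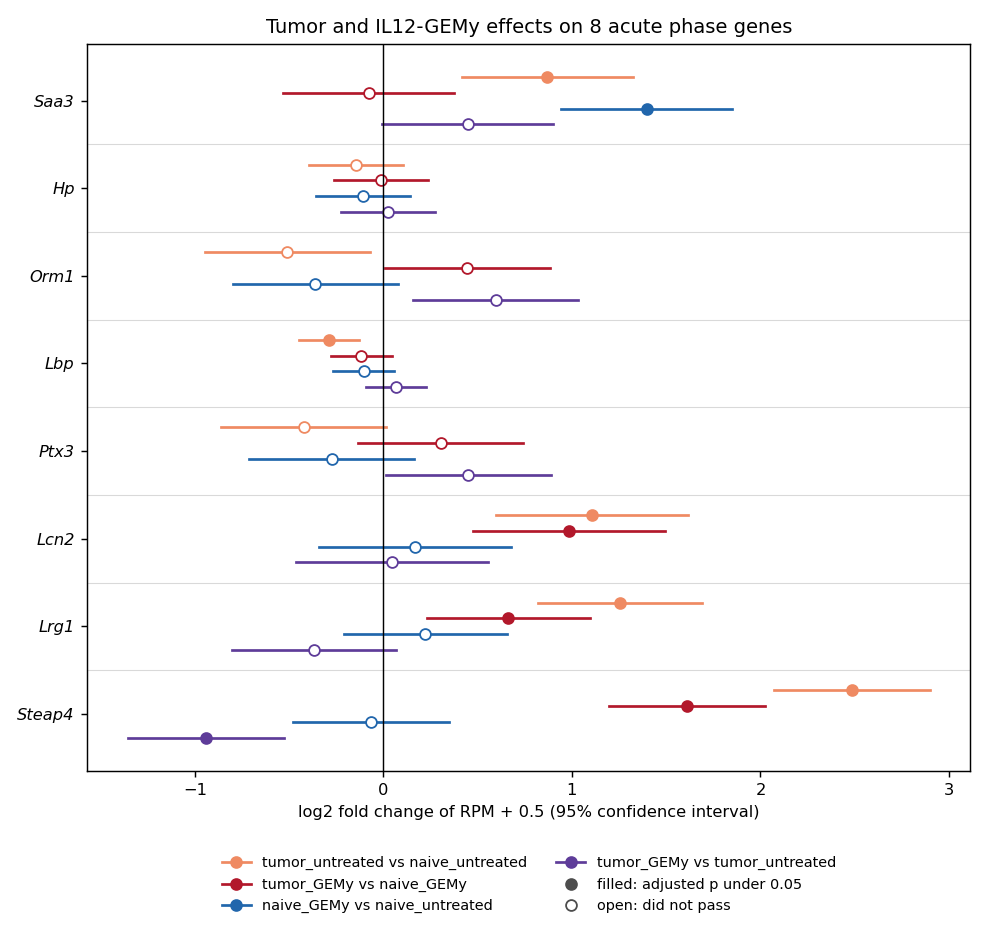
Log2 fold changes of RPM + 0.5 for the 8 tested genes in 4 comparisons, with 95% confidence intervals, filled where the adjusted p was under 0.05. Steap4 moved most with the tumor and was the only one of the 8 called between tumor_GEMy and tumor_untreated, and Saa3 was the only one called between naive_GEMy and naive_untreated lungs.

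The genes that drive the acute phase response, from a list of cytokines and their receptors, were mixed in the same comparison: 6 of 12 tested members rose and 4 fell. Il1b, the gene of interleukin-1 beta, rose by a log2 of 3.34 (adjusted p = 3.76e-08), Osm, which encodes the interleukin-6 family cytokine oncostatin M, by 2.31 (adjusted p = 3.36e-06) and Tnf by 1.86 (adjusted p = 3.38e-05). Il6 itself was under the minimum, with 65 reads over the tumor_untreated libraries, against 16 over the naive_untreated libraries. Il6ra, a receptor subunit for interleukin-6 that was chosen after its value was seen, rose by 0.79 (adjusted p = 7.00e-06).

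Of the transcription factor and feedback genes, 9 of 12 rose and 1 fell. Cebpd, which encodes the acute phase factor C/EBP delta, rose by 1.70 (adjusted p = 4.41e-05), Bcl3, a partner of NF-kappaB, by 1.32 (adjusted p = 3.68e-06), and Socs3, a feedback inhibitor induced by STAT3, by 1.31 (adjusted p = 9.93e-08). Of the receptors and partners of the acute phase proteins, 5 of 12 rose and 3 fell. Fpr2, a formyl peptide receptor that also binds serum amyloid A, rose by 2.37 (adjusted p = 5.94e-07), Tlr2 by 1.20 (adjusted p = 6.16e-06) and Tnfaip6, which encodes the matrix protein TSG-6 that binds PTX3, by 1.09 (adjusted p = 1.26e-05). Of 14 tested genes of other acute phase proteins, 4 rose, 3 fell and 7 did not pass. Il1rn, the gene of the interleukin-1 receptor antagonist, rose by 2.09 (adjusted p = 2.16e-06), Mt2, a metallothionein gene, by 0.99 (adjusted p = 0.000823) and Cd14 by 0.89 (adjusted p = 0.000852). Median log2 fold changes were 0.34 for the cytokine list, 0.58 for the factors, 0.29 for the receptors and 0.05 for the other acute phase proteins, against −0.09 for all genes tested.

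Neutrophil markers moved beside Steap4, Lrg1 and Lcn2. Of 14 markers, 12 rose with the tumor in untreated lungs and 2 did not pass. Their summed level was 1711 to 5589 RPM in tumor_GEMy, 3275 to 5494 RPM in tumor_untreated, 245 to 427 RPM in naive_GEMy and 288 to 421 RPM in naive_untreated libraries. No neutrophil marker was without reads in any lung group. The injected product had 2970 RPM of the same 14 markers, so they do not mark cells of the recipient mice only. Of 5 tested hepatocyte markers none passed in limma in the same comparison. Monocyte and macrophage markers also moved, as 9 of 10 rose and 1 did not pass, with a median log2 fold change of 0.99. Among them, and chosen after their values were seen, were Fcgr4, an Fc receptor gene (2.98, adjusted p = 1.63e-09), and Ly6c2, a marker of inflammatory monocytes (2.30, adjusted p = 6.27e-07). Their summed level was 5948 to 6856 RPM in tumor_untreated, against 5918 to 6547 RPM in naive_untreated libraries. This sum is weighted towards the most abundant markers and is no measure of cell number. The part of neutrophil or monocyte number in these results, the rises of Saa3, Il1b and Tnf included, was not tested.

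Across the 16 lungs the patterns most like Steap4 were those of Csf3r, the granulocyte colony-stimulating factor receptor gene (Pearson r = 0.98), and the C-type lectin genes Clec4e and Clec4d (r = 0.98 each). For Lcn2 they were Itgb2l (r = 0.96), the neutrophil surface gene Cd177 (0.96) and Ceacam10 (0.96), and for Lrg1 they were Ceacam10 (0.94), Grina (0.93) and Sema6b (0.93). After the group means were taken off, r was 0.70, 0.63 and 0.68 for Steap4 with its 3 genes, 0.89, 0.92 and 0.94 for Lcn2, and 0.77, 0.68 and 0.88 for Lrg1. Among the acute phase genes themselves, Lcn2 and Lrg1 were the most alike (r = 0.91), and Steap4 had 0.82 with Lrg1 and 0.79 with Lcn2. Saa3 was less like these 3 genes (r = 0.40, 0.34 and 0.24 with Lcn2, Lrg1 and Steap4). With group means taken off, r was 0.77 for Lcn2 with Lrg1, but −0.09 for Steap4 with Lrg1 and 0.21 for Steap4 with Lcn2. For Saa3 it was 0.23, 0.13 and 0.36 in the same order. The highest r was then that of Hp with Lrg1, 0.80, against 0.13 before. All values come from the same 16 libraries, which share groups and depth, and are given as descriptions.

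**Figure D3:**
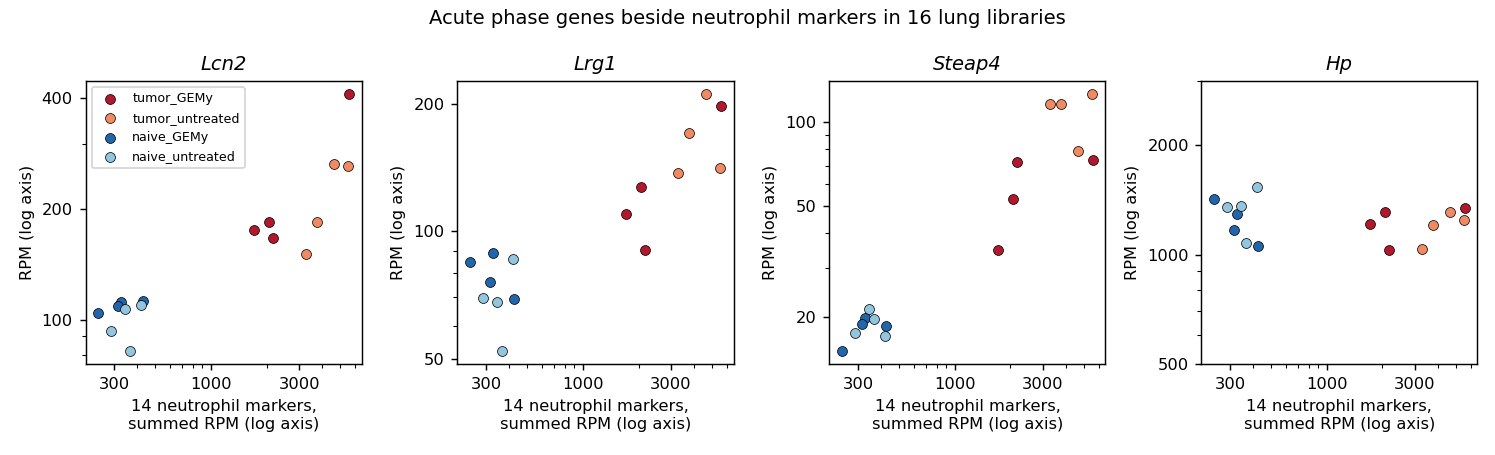
RPM of Lcn2, Lrg1, Steap4 and Hp against the summed RPM of 14 neutrophil markers in each of the 16 lung libraries, on log axes. Naive lungs lie at 245 to 427 RPM of markers and tumor lungs at 1711 to 5589 RPM, and Hp lies between 1029 and 1535 RPM in both.

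Per 100 RPM of neutrophil markers, Lcn2 stood at 7.35 to 10.2 RPM in tumor_GEMy and 4.61 to 5.71 RPM in tumor_untreated lungs, against 26.3 to 42.5 RPM in naive_GEMy and 22.4 to 32.4 RPM in naive_untreated lungs. The markers thus differed more between tumor and naive lungs than Lcn2 did. Among tumor-bearing lungs, every tumor_GEMy library was above every tumor_untreated library in this ratio, a separation whose share over all genes was not computed. Lcn2 itself overlapped between these groups, at 166.6 to 410.8 RPM in tumor_GEMy and 150.9 to 265.1 RPM in tumor_untreated libraries. The divisor was 1711 to 2168 RPM in tumor_GEMy replicates 2 to 4 and 5589 RPM in replicate 1. In tumor_untreated libraries it was 3275 to 5494 RPM. Naive lungs held 82.0 to 112.3 RPM of Lcn2 at 245 to 427 RPM of markers. The ratio thus does not separate Lcn2 of neutrophils from Lcn2 of other cells. The same ratio overlapped for Steap4, at 1.31 to 3.33 RPM in tumor_GEMy and 1.70 to 3.56 RPM in tumor_untreated lungs, and for Lrg1, at 3.55 to 6.43 RPM in tumor_GEMy and 2.57 to 4.55 RPM in tumor_untreated lungs.

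Comparing naive_GEMy with naive_untreated lungs asked what the cells changed without a tumor. Saa3 rose, and the other 7 tested genes did not pass, while 5.12% of all tested genes were called higher, 1.58% lower and 6.69% in either direction. Saa3 had 1.34, 1.44, 1.31 and 0.724 FPKM in naive_GEMy lungs, against 0.448, 0.241, 0.306 and 0.485 FPKM in naive_untreated lungs. Every naive_GEMy library was higher, and replicate 4 was the lowest of them. For 17.4% of all tested genes these groups did not overlap. Saa3 was higher by a log2 of 1.40 (SE 0.22, adjusted p = 0.000323), a 2.63-fold difference with a 95% confidence interval of 1.92 to 3.61. Leaving out any 1 library kept it between 1.27 and 1.60.

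The iron and neutrophil related genes did not pass. Lcn2 had 33.6, 36.0, 36.2 and 35.1 FPKM in naive_GEMy lungs, the narrowest group of the 4, against the naive_untreated values above (log2 0.17, 95% confidence interval −0.34 to 0.68, adjusted p = 0.752). Lrg1 had 37.3, 39.3, 30.5 and 33.5 FPKM in naive_GEMy lungs and overlapped with naive_untreated lungs (0.22, −0.21 to 0.66, adjusted p = 0.595). Steap4 had 0.691, 0.915, 0.85 and 0.866 FPKM in naive_GEMy lungs, against a naive_untreated range of 0.783 to 0.984 FPKM (−0.07, −0.48 to 0.35, adjusted p = 0.892). Its lowest naive_GEMy library was below that range and the other 3 were inside it. Neutrophil markers did not move either, as none of the 14 passed in limma.

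The remaining genes also overlapped between these groups. Hp had 352, 319, 261 and 288 FPKM in naive_GEMy lungs (log2 −0.11, 95% confidence interval −0.36 to 0.14, adjusted p = 0.666), and Lbp had 2.46, 2.67, 2.58 and 2.30 FPKM (−0.10, −0.27 to 0.06, adjusted p = 0.48). Orm1 had 0.158, 0.213, 0.351 and 0.213 FPKM in naive_GEMy lungs (−0.36, −0.80 to 0.08, adjusted p = 0.357), with replicate 3 inside the naive_untreated range and the others below it. Ptx3 had 0.17, 0.083, 0.137 and 0.0976 FPKM in naive_GEMy lungs (−0.27, −0.71 to 0.16, adjusted p = 0.502), with 2 libraries inside the naive_untreated range and the other two below it.

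In the other lists few genes moved with the cells alone. Of the other acute phase proteins 1 of 14 rose, Cfb, the gene of complement factor B (log2 0.61, adjusted p = 0.000472). Of the transcription factors and feedback genes Bcl3 (1.04, adjusted p = 0.000136) and Stat3 (0.49, adjusted p = 0.000129) rose, 2 of 12. Of the cytokines and receptors 2 of 12 rose, Tnf (1.02, adjusted p = 0.0207) and its receptor gene Tnfrsf1a (0.33, adjusted p = 0.00671). The Tnf call was lost without naive_GEMy replicate 1 (adjusted p = 0.0747) or 4 (0.0611) or naive_untreated replicate 1 (0.0669), 2 (0.0589) or 4 (0.0607), on log2(FPKM + 0.5) (0.0504) and with voom (0.0648). No receptor or partner gene of 12 passed in limma.

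The genes most like Saa3 across the 16 lungs were Il18bp, which encodes an inhibitor of interleukin-18 that is induced by interferon-gamma (r = 0.90), Batf2 (0.89) and Parp10 (0.89). With group means taken off, these fell to 0.44, 0.40 and 0.52. Of 10 monocyte and macrophage markers, 7 rose in naive_GEMy lungs, with summed levels of 6775 to 7311 RPM, against 5918 to 6547 RPM in naive_untreated lungs. The product had 6328 RPM of the same 10 markers. The part of monocytes and macrophages in the Saa3 result was not tested.

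Comparing tumor_GEMy with tumor_untreated lungs asked what the cells changed in tumor-bearing mice. Steap4 fell and the other 7 tested genes did not pass, while 2.81% of all tested genes were called lower, 2.42% higher and 5.23% in either direction. Steap4 had 3.36, 2.44, 1.60 and 3.32 FPKM in tumor_GEMy lungs, against 3.63, 5.35, 5.37 and 5.82 FPKM in tumor_untreated lungs. The groups did not overlap, as for 8.68% of all tested genes, although tumor_GEMy replicates 1 and 4 came close to tumor_untreated replicate 1. Steap4 differed by a log2 of −0.94 (SE 0.20, adjusted p = 0.00856), a ratio of 0.52 with a 95% confidence interval of 0.39 to 0.693. The call was lost when only these 8 libraries were fitted (adjusted p = 0.101).

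Steap4 stayed above naive lungs after treatment. Against naive_GEMy lungs, with 0.691 to 0.915 FPKM, the tumor_GEMy lungs were higher by a log2 of 1.61 (SE 0.20, adjusted p = 9.48e-05), and against naive_untreated lungs by 1.54 (SE 0.20, adjusted p = 1.91e-05).

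Lcn2 had 132, 59.2, 56.4 and 53.7 FPKM in tumor_GEMy lungs, against 85.4, 59.5, 48.6 and 84.5 FPKM in tumor_untreated lungs. Replicate 1 of tumor_GEMy was the highest of all lung libraries, and it also had the highest neutrophil marker sum, 5589 RPM, against 1711 to 2168 RPM in the other 3 libraries of its group. Its log2 fold change of 0.05 did not pass (95% confidence interval −0.46 to 0.56, adjusted p = 0.953) and was −0.26 without that library (adjusted p = 0.462).

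Lrg1 had 87.4, 56.1, 48.5 and 39.9 FPKM in tumor_GEMy lungs, against 93.1, 75.4, 60.6 and 62.2 FPKM in tumor_untreated lungs. The same tumor_GEMy replicate 1 was high, and the groups overlapped (log2 −0.37, 95% confidence interval −0.80 to 0.06, adjusted p = 0.373).

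Saa3 had 1.25, 1.30, 0.856 and 1.05 FPKM in tumor_GEMy lungs, against 0.582, 0.626, 0.897 and 1.06 FPKM in tumor_untreated lungs. The groups overlapped, and the log2 fold change of 0.45 did not pass (SE 0.22, adjusted p = 0.28), although it passed with array weights (0.65, adjusted p = 0.0433). Hp was level, at 332, 323, 300 and 254 FPKM in tumor_GEMy lungs and a log2 fold change of 0.03 (95% confidence interval −0.22 to 0.27, adjusted p = 0.949). Lbp had 2.31, 2.34, 2.38 and 2.20 FPKM in tumor_GEMy lungs, inside the tumor_untreated range, and a log2 fold change of 0.07 (adjusted p = 0.716).

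Orm1 had 0.346, 0.277, 0.243 and 0.665 FPKM in tumor_GEMy lungs, all above the 0.158 to 0.239 FPKM of tumor_untreated lungs. The groups did not overlap, but the log2 fold change of 0.60 did not pass (SE 0.21, adjusted p = 0.117). The highest library, tumor_GEMy replicate 4, also had 41.6 RPM of the adipocyte gene Adipoq, against 6.90 to 12.8 RPM in the other 15 lungs. Its 7 adipocyte markers summed to 542.6 RPM, against 288.5 to 381.8 RPM in those lungs. Adipor2 was the most abundant of the 7 in lung. It was also the only one with reads in the product, where the sum was 254.8 RPM, so most of the sum need not come from adipocytes. Adipoq was among the 3 genes most like Orm1 (r = 0.84), with Ptger3 (0.85) and Ccdc80 (0.83). The part of adipocyte RNA in the Orm1 values was not tested.

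Ptx3 had 0.183, 0.135, 0.179 and 0.172 FPKM in tumor_GEMy lungs, against 0.0612, 0.164, 0.165 and 0.0416 FPKM in tumor_untreated lungs. The groups overlapped and the log2 fold change of 0.45 did not pass (adjusted p = 0.26). The genes most like Ptx3 were Usp10 (r = 0.80), Pcdha10 (0.76) and Tekt3 (0.73), those most like Hp were Urod (0.84), Crybg2 (0.83) and Ccdc189 (0.81), and those most like Lbp were Rph3al (0.94), Mmp23 (0.93) and Aldh7a1 (0.93).

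The inducing genes were lower where they passed in treated tumor-bearing lungs. Of 12 cytokine and receptor genes 3 fell and none rose. Il1b averaged 10.0 ± 2.88 FPKM in tumor_GEMy and 27.8 ± 8.58 FPKM in tumor_untreated lungs (SD, n = 4 each) and differed by a log2 of −1.46 (adjusted p = 0.00142). Il6ra fell by 0.43 (adjusted p = 0.0115) and Il17ra, the interleukin-17 receptor gene, by 0.53 (adjusted p = 0.0356). The Il17ra call was lost without tumor_GEMy replicate 1, 2 or 3 or tumor_untreated replicate 3 or 4 (adjusted p between 0.0524 and 0.113). So it was with median-of-ratios scaling (0.058), plain moderation (0.0506), a hemoglobin covariate (0.0608) and the compared groups alone (0.136).

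Of the transcription factors and feedback genes, 3 of 12 fell and none rose. Nfkbiz, which encodes an NF-kappaB partner needed for Lcn2 induction, fell by 0.73 (adjusted p = 0.00627), Socs3 by 0.55 (adjusted p = 0.00539) and the inhibitor gene Nfkbia by 0.31 (adjusted p = 0.0196). The Nfkbia call was lost without tumor_GEMy replicate 4 (adjusted p = 0.0531). In a fit of the compared groups alone Il6ra (adjusted p = 0.0653), Socs3 (0.0588) and Nfkbia (0.135) lost their calls.

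Of the 14 other acute phase genes 4 rose and 1 fell. Fgg, a fibrinogen chain gene, averaged 0.239 ± 0.0281 FPKM in tumor_GEMy and 0.104 ± 0.0139 FPKM in tumor_untreated lungs and rose by a log2 of 0.83 (adjusted p = 0.00161). Itih4, the gene of an inter-alpha-trypsin inhibitor chain, rose by 0.76 (adjusted p = 0.000452). The other two rises, chosen after their values were seen, were the complement genes C3 (0.47, adjusted p = 0.00381) and Cfb (0.49, adjusted p = 0.00564). Il1rn fell by 0.84 (adjusted p = 0.0308), a call lost without tumor_GEMy replicate 1, 2 or 3 or tumor_untreated replicate 2, 3 or 4 (adjusted p = 0.0589 to 0.0911) and in a fit of the compared groups alone (0.195). Of the receptors and partners 1 of 12 rose, Lrp2, which encodes megalin, an endocytic receptor that takes up lipocalin-2 (0.58, adjusted p = 0.00121). Of the 14 neutrophil markers 3 fell and 11 did not pass, and of the 13 epithelial markers 4 rose and 9 did not pass. The part of these cells in the Steap4 result was not tested. Of 5 tested hepatocyte markers none passed in limma, with the sums given above.

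The tumor effect among treated mice was read from tumor_GEMy against naive_GEMy lungs. Steap4, Lcn2 and Lrg1 rose, 3 of 8 tested genes, while 3.85% of all tested genes were called higher, 6.58% lower and 10.4% in either direction. The groups did not overlap for these 3 genes, nor for 19.2% of all tested genes. Lcn2, with 53.7 to 132 FPKM in tumor_GEMy and 33.6 to 36.2 FPKM in naive_GEMy lungs, was higher by a log2 of 0.98 (SE 0.24, adjusted p = 0.0184), a call lost without naive_GEMy replicate 1 (adjusted p = 0.0528) and under the hemoglobin covariate (0.67, adjusted p = 0.272). Lrg1, with 39.9 to 87.4 FPKM in tumor_GEMy and 30.5 to 39.3 FPKM in naive_GEMy lungs, was higher by 0.66 (SE 0.20, adjusted p = 0.0496), which is at the threshold. That call was lost without tumor_GEMy replicate 1, 2 or 3, any 1 of naive_GEMy replicates 1 to 4, tumor_untreated replicate 2 or 3, or naive_untreated replicate 1 or 2 (adjusted p between 0.0507 and 0.124). The same held under 7 other settings (adjusted p = 0.0502 to 0.382). Saa3 did not pass (log2 −0.08, 95% confidence interval −0.53 to 0.37, adjusted p = 0.841), with every library of both groups above every naive_untreated library. Orm1 had 0.243 to 0.665 FPKM in tumor_GEMy and 0.158 to 0.351 FPKM in naive_GEMy lungs, which overlapped, and did not pass (0.45, 95% confidence interval 0.01 to 0.88, adjusted p = 0.178). Nor did Ptx3 (0.30, −0.13 to 0.74, adjusted p = 0.362), Lbp (−0.12, −0.28 to 0.04, adjusted p = 0.34) or Hp (−0.01, −0.26 to 0.24, adjusted p = 0.963). Of the neutrophil markers 12 of 14 and of the monocyte and macrophage markers 3 of 10 rose here. In the lists 2 of 12 cytokine and receptor genes, 2 of 12 factors, 3 of 12 receptors and partners and 4 of 14 other acute phase genes rose, and 0, 1, 1 and 1 fell.

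Tumor_GEMy lungs were also compared with naive_untreated lungs, with 12.5% of all tested genes called higher, 24.4% lower and 36.9% in either direction. Of the acute phase genes 4 rose and 1 fell, and the groups did not overlap for these 5, nor for 37.8% of all tested genes. Saa3 was higher by a log2 of 1.32 (adjusted p = 0.000173), Lcn2 by 1.15 (adjusted p = 0.00183) and Lrg1 by 0.89 (adjusted p = 0.00353), and Steap4 is given above. Lbp was lower by a log2 of −0.22 (adjusted p = 0.0308). Median-of-ratios scaling ended this call (−0.12, adjusted p = 0.268), as did the hemoglobin covariate (0.0569) and leaving out tumor_GEMy replicate 1, 2 or 4 or naive_untreated replicate 1, 2 or 4 (adjusted p = 0.0533 to 0.0862). Hp (−0.12, adjusted p = 0.45), Orm1 (0.09, adjusted p = 0.768) and Ptx3 (0.03, adjusted p = 0.923) did not pass. This comparison shares its libraries with those above.

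Whether the effect of the cells depended on the tumor was asked by the interaction, the effect of the cells in tumor-bearing mice minus that in naive mice. None of the 8 genes was called in limma, against 4.97% of all tested genes (1.03% higher, 3.94% lower), and 4 had an unadjusted p under 0.05. With array weights 3 were called, Saa3, Orm1 and Steap4. For Saa3, which was higher by 0.45 with the cells in tumor-bearing lungs and by 1.40 in naive lungs, the interaction was −0.95 (SE 0.30, adjusted p = 0.0861). For Steap4, with cell effects of −0.94 and −0.07, it was −0.88 (SE 0.28, adjusted p = 0.0852). For Orm1, with cell effects of 0.60 and −0.36, it was 0.96 (SE 0.29, adjusted p = 0.0722). For Ptx3 it was 0.72 (SE 0.29, adjusted p = 0.187) and for Lrg1 −0.59 (SE 0.29, adjusted p = 0.287). Lbp (0.17, adjusted p = 0.422), Hp (0.13, adjusted p = 0.726) and Lcn2 (−0.12, adjusted p = 0.893) had the smallest interactions. Leaving out 1 library gave a call for Saa3 without tumor_untreated replicate 1 (adjusted p = 0.0344) or naive_GEMy replicate 4 (0.0288), for Orm1 without tumor_GEMy replicate 3 (0.0474) or naive_GEMy replicate 3 (0.0396), and for Steap4 without tumor_GEMy replicate 1 (0.0455) or tumor_untreated replicate 1 (0.0178).

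Genes of the inducing lists were called in the interaction. Of 12 cytokine and receptor genes 5 were lower, among them Il1b (−1.67, adjusted p = 0.00746), Tnf (−1.55, adjusted p = 0.0177) and Il17ra (−0.91, adjusted p = 0.0131). Of 12 factors 4 were lower, among them Bcl3 (−1.23, adjusted p = 0.00277), Socs3 (−0.71, adjusted p = 0.0111) and Cebpb (−1.32, adjusted p = 0.048). The Cebpb call was lost without any 1 of 11 of the 16 libraries (adjusted p up to 0.11): tumor_GEMy replicate 2, tumor_untreated replicates 2 and 3, and all 4 libraries of each naive group. It was also lost after quantile normalization (adjusted p = 0.0594), with voom (0.0546) and under the hemoglobin covariate (0.0534). Of the other acute phase genes Il1rn was lower (−1.36, adjusted p = 0.0152) and Fgg (0.90, adjusted p = 0.0116) and Itih4 (0.64, adjusted p = 0.0183) were higher. Lrp2 was higher (0.64, adjusted p = 0.00886), the 1 call among 12 receptors and partners. Cell markers moved beside these genes: 8 of 10 monocyte and macrophage markers were lower in the interaction and 2 did not pass (median −0.90), and 1 of 14 neutrophil markers, Csf3r, was lower (−1.19, adjusted p = 0.0152). Their part in these calls was not tested.

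The IL12-GEMy product, a single library with no replicate, had a different profile of these genes from lung. Saa3 stood at 44.7 FPKM in the product (5113 reads, exact 95% Poisson interval 43.5 to 45.9 FPKM), against 0.87 FPKM as the mean of 16 lungs, 51.4 times higher. Hp was again the highest, at 108 FPKM in the product (interval 106 to 109), against 308 FPKM in lung. Lcn2 had 31.4 FPKM in the product (30.3 to 32.5), against 31.5 FPKM in naive_untreated lungs and 52.9 FPKM over all lungs. Intervals cover counting error in this 1 library only.

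The genes that rose most with the tumor were low in the product. Steap4 had 0.157 FPKM there (106 reads, interval 0.128 to 0.19), 15.0 times lower than the lung mean of 2.36 FPKM. Lrg1 had 7.29 FPKM (515 reads, interval 6.68 to 7.95), 6.73 times lower than the lung mean of 49.1 FPKM. Lbp had 1.06 FPKM, against 2.43 FPKM in lung, and Orm1 0.205 FPKM (23 reads, interval 0.13 to 0.307), against 0.287 FPKM in lung. Saa1 and Ptx3 had 0 reads, which allows up to 3 reads, or 0.0388 FPKM for Saa1 and 0.0163 FPKM for Ptx3, and Ptx3 averaged 0.14 FPKM in lung.

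**Figure D4:**
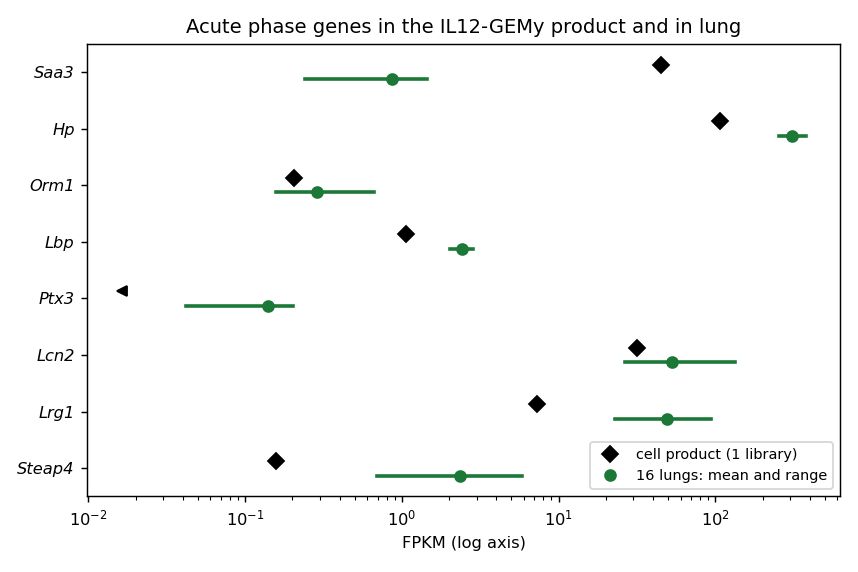
FPKM of 8 acute phase genes on a log axis in the product (diamonds, 1 library) and in 16 lungs (mean and range). The triangle marks Ptx3 at the 3 reads that a count of 0 allows, and Saa3 is the only gene of the 8 whose product value lies above the whole lung range.

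Because Saa3 was high in the injected cells, genes of the product were read beside it in lung. Mpo, the myeloperoxidase gene of granulocyte precursors, had 1759 RPM in the product, against 3.68 to 13.0 RPM in tumor_GEMy, 4.75 to 6.72 RPM in tumor_untreated, 0.471 to 5.10 RPM in naive_GEMy and 0.774 to 3.74 RPM in naive_untreated libraries. Saa3 had 164.3 RPM in the product, against 3.15 to 4.77 RPM in tumor_GEMy, 2.14 to 3.88 RPM in tumor_untreated, 2.66 to 5.31 RPM in naive_GEMy and 0.886 to 1.78 RPM in naive_untreated libraries. Mpo in naive_GEMy libraries thus overlapped with naive_untreated libraries, while Saa3 did not. Prtn3, the proteinase 3 gene of the same precursors, did not overlap either, with 400.8 RPM in the product, against 1.07 to 1.79 RPM in naive_GEMy and 0.492 to 0.908 RPM in naive_untreated libraries. Elane, the neutrophil elastase gene, had 261 RPM in the product, against 0.168 to 2.14 RPM in naive_GEMy and 0.352 to 0.774 RPM in naive_untreated libraries. Of the 8 progenitor and product markers 1 rose in naive_GEMy against naive_untreated lungs, Itgam, the integrin gene of CD11b (log2 0.74, adjusted p = 0.0305, not recomputed under other settings). It had 743.1 RPM in the product, against 62.6 to 93.0 RPM in naive_GEMy and 39.7 to 46.9 RPM in naive_untreated libraries, which did not overlap. Ctsg, another of the 8, had 392.8 RPM in the product and overlapped, at 0.202 to 0.844 RPM in naive_GEMy and 0.0703 to 0.239 RPM in naive_untreated libraries. The 8 markers had summed levels of 574 to 635 RPM in naive_GEMy, against 537 to 576 RPM in naive_untreated libraries. Most of this sum was Kit and Cd34, which had 237 to 251 and 242 to 286 RPM in naive_untreated libraries. In the product they had 82.2 and 264 RPM, so the sum mainly reflects RNA also present without the cells. The part of injected cells in the Saa3 level of treated lungs was not tested.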

How the data were processed

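The authors deposited 1 table of FPKM, with 18262 genes and 17 libraries. STAR 2.7.3a, Partek and mm10 are named by the submitters' processing notes, and settings are not given in the sources used here. FPKM times the listed span in kilobases summed to 1000000 in each library, so the length is the genomic span, which lowers genes with long introns, and the product is RPM. The reads per library were found by a search for the depth that made the largest share of values whole numbers of reads. Of values under 1000 reads, 86.6 to 88.5% in lungs were whole within 0.02, and floors are 3 reads.

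limma 3.58.1 in R 4.3.3 fitted log2(RPM + 0.5) of genes with at least 0.5 RPM in at least 4 lungs, with trend and robust moderation, as 4 group means over 16 lungs. Replicates correlated at 0.98 to 0.996. On simulated data for tumor_untreated minus naive_untreated, 75% of planted 1.5-fold and 91% of planted 2-fold changes were called, with 11 false calls among 15388 genes. Only 100 changes of each size were planted, in genes averaging at least 1 RPM, whereas 6277 genes were called in the data. The simulated noise was independent between genes and its SD had an upper limit, so these rates need not hold for the data. Replicate numbers were not used as pairs, since not every same-numbered pair correlated above 0.1.

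Alternatives were log2(FPKM + 0.5), pseudocounts of 0.1 and 1, no minimum or 1 RPM, quantile normalization, median-of-ratios scaling, array weights, moderation without trend or robustness (plain), a replicate block, voom on recovered reads, the compared groups alone, the hemoglobin share as a covariate and leaving out each library. The members and lists were chosen with earlier results of these data known. Every member was named in every comparison where tested. From each other list the counts were given and the 3 members with the largest changes past the threshold were named, in the comparisons between groups that differ in 1 factor and start from untreated lungs, and in the interaction. Of the other comparisons, tumor_GEMy minus naive_GEMy has counts only, and tumor_GEMy minus naive_untreated has none for these lists. Marker lists have counts or sums. Some single markers were named outside this rule, among them Cyp2e1, Ager, Bpifa1, Fcgr4, Ly6c2, Csf3r and Itgam. For each tested member the 3 genes most correlated over 16 lungs were named, predicted genes left out. Positions are mm10 from the deposited table, and promoters are RefSeq GRCm38.p6. Crp, Apcs, Fgb, Il22 and Il17a of the lists were not analysed here. Figures used matplotlib 3.10.9.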

Additional observations from a re-analysis of the deposited data

Results flagged for a closer look

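Of 36 groups of 4 libraries tested for a library far from the others, 2 gave one, where chance gives about 1 in 20. Lcn2 in tumor_GEMy replicate 1 stood at 132.4 FPKM, against 53.7 to 59.2 FPKM in the other 3 libraries, with a gap of 0.93 of the range of the group. The same library had 87.4 FPKM of Lrg1 and 5589 RPM of summed neutrophil markers, and whether these share a source was not tested.

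Lbp in naive_untreated replicate 3 stood at 2.387 FPKM, below the other 3 libraries at 2.76 to 2.83 FPKM, with a gap of 0.843 of the range of the group. Hp was also lowest in that library among the naive_untreated lungs, at 267 FPKM.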

How the results depend on the processing

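Of 8 tested genes, 5 were called in tumor_untreated minus naive_untreated (4 to 6 under the other settings, 5 to 6 leaving out 1 library) and 1 in naive_GEMy minus naive_untreated under every setting. In tumor_GEMy minus tumor_untreated 1 was called, 0 with only the compared groups and 2 with array weights (1 leaving out any library). In tumor_GEMy minus naive_GEMy 3 were called, 1 with hemoglobin as a covariate (1 to 3 leaving out a library), and in tumor_GEMy minus naive_untreated 5 (4 to 5). In the interaction 0 were called, 3 with array weights (0 to 2 leaving out a library). The cause of these shifts was not tested.

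Directions turned for uncalled genes only: Steap4 in naive_GEMy with hemoglobin as a covariate (0.0419), Hp in tumor_GEMy minus tumor_untreated after quantile normalization (−0.0187), Hp in tumor_GEMy minus naive_GEMy with median-of-ratios scaling (0.0624) and array weights (0.0354), and Orm1 (−0.0242) and Ptx3 (−0.11) in tumor_GEMy minus naive_untreated with array weights. Leaving out 1 library gave log2 ranges that cross 0 for Steap4 in naive_GEMy minus naive_untreated (−0.11 to 0.0164). In tumor_GEMy minus tumor_untreated this held for Hp (−0.042 to 0.11) and Lcn2 (−0.26 to 0.17), in tumor_GEMy minus naive_GEMy for Saa3 (−0.28 to 0.0273) and Hp (−0.0827 to 0.0705), in tumor_GEMy minus naive_untreated for Orm1 (−0.144 to 0.214) and Ptx3 (−0.058 to 0.101), and in the interaction for Lcn2 (−0.43 to 0.0046).

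Over all genes, tumor_untreated minus naive_untreated gave 2271 higher and 4006 lower, and 3102 and 2521 with median-of-ratios scaling. Tumor_GEMy minus naive_GEMy gave 593 and 1014, and 832 and 485 (671 and 722 after quantile normalization), and tumor_GEMy minus naive_untreated 1926 and 3762, and 2623 and 1983. In the last of these the median of all genes was −0.108, and −0.01 with median-of-ratios scaling, and in the others it moved by less. Called genes numbered 1032 in naive_GEMy minus naive_untreated, and 1704 with only the compared groups, 2672 with array weights and from 659 leaving out a library. In tumor_GEMy minus tumor_untreated they numbered 806, against 245, 2348 and from 488. In tumor_GEMy minus naive_GEMy they numbered 1607, against 3225 with array weights, 181 with hemoglobin and from 779, and in the interaction 767, against 2049 with array weights and 500 to 1578 leaving out a library.

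With a replicate block, member calls were 6, 1, 1, 3, 5 and 0 in the 6 comparisons in this order, and genes called 6703, 1216, 1036, 1970, 6224 and 1012. Correlations of same-numbered libraries ran from −0.25 to 0.49, 12 of 24 above 0.1 (20 of 72 for different numbers), so not every pair passed 0.1 and the numbers were not treated as pairs. That 9 of 16 libraries correlated best with their own number is a hint from the data that some numbers may share a set. The block changed 1 single-gene call, adding Orm1 in tumor_untreated minus naive_untreated (adjusted p = 0.0495). Counting error is largest for Saa1 (0 to 4 reads), Ptx3 (8 to 40), Orm1 (17 to 73) and Saa3 (26 to 173 per lung).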
